A study of Mus musculus with 10 samples.

Results

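The nuclear genes for 3 respiratory chain assemblies were followed in 10 array profiles of mouse colon tumours: complex III (ubiquinol-cytochrome c reductase), complex IV (cytochrome c oxidase) and the ATP synthase. Genes were taken by the start of their symbol in the platform annotation, Uqcr for complex III, Cox4 to Cox8 for complex IV and Atp5 for the ATP synthase. This gave 38 of 23111 named genes, 7 of complex III, 17 of complex IV and 14 of the ATP synthase, each read by 1 probe set. The subunit genes Uqcrb, Cox7c, Atp5g1, Atp5g2, Atp5l and Atp5j2 and those of mitochondrial DNA were not among the named genes. No assembly was therefore covered in full. The 5 WT samples came from Ucp2+/+ mice and the 5 KO samples from Ucp2-/- mice, all labelled C57BL6/J, and tumours of both groups were induced with AOM/DSS, a carcinogen (azoxymethane) followed by a polymer that inflames the colon (dextran sodium sulphate), and collected at week 15. The labels do not give the sex or age of the mice, how the Ucp2 allele was made, or whether the samples are from separate mice, and the spread behind every p-value is that of these samples and may be technical in part. Samples are named by genotype and label number, WT replicates 1 to 5 and KO replicates 6 to 10.

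Complex III passes electrons from ubiquinol to cytochrome c, complex IV passes them from cytochrome c to oxygen, and both move protons out of the mitochondrial matrix. The ATP synthase lets protons return through its membrane part (Fo) and couples this flow to ATP formation in its catalytic head (F1). Ucp2, the gene deleted in the KO mice, encodes a carrier of the same inner membrane. Colon epithelial cells are known for a high use of oxidative metabolism. Most subunits of the 3 assemblies come from nuclear genes, a few come from mitochondrial DNA, and complex IV has isoforms restricted to muscle, testis or lung.

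Values are log2 signals as the authors deposited them, and a difference is the KO mean minus the WT mean. No detection call came with the values. A guide to background was set at 5.14, under which 95% of 1088 olfactory receptor genes had their mean, and 30 of the 38 genes had a mean above it. The 8 below it were the muscle or testis isoform genes Cox6a2, Cox7b2, Cox8b and Cox8c, the pseudogene Atp5c1-ps, and 3 genes of widely expressed subunits, Cox5b, Cox7b and Atp5h. For these 8 a difference is open to background. Signals of different probe sets were not compared in level.

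Array medians lay between 5.83 and 5.92 and arrays correlated across genes with r of 0.964 to 0.993. The unnamed probe set whose ID holds the gene number of Ucp2 read 10.84 to 11.55 in WT and 9.73 to 9.97 in KO, so the groups did not overlap there, and the KO signal stayed above the guide to background. The sources used here do not place its probes relative to the deleted part. The 11 epithelial markers were all above the guide, with a mean log2 signal per array of 10.15 to 10.67 in WT and 10.44 to 10.61 in KO. WT replicate 5 had the lowest value and stood apart from the other 9 arrays in this mean. Its markers were uneven. It was the lowest array in each marker except Epcam, Krt18 and Krt19, and was farthest from the rest in Krt20 (10.07, with the other arrays at 11.01 to 11.42).

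Promoter windows are shown for 5 genes, those of the 4 genes with the smallest p-values and that of Atp5k, whose signal went most closely with that of the other subunit genes. Each is the 250 bases before a transcription start listed by RefSeq (GRCm38.p6), written 5′ to 3′ on the strand of the gene. For Atp5d the first of 2 listed starts was taken. Capitals mark 2 motifs, searched on both strands: GCGCATG, the core of the sequence bound by the respiratory regulator NRF1, and CCGGAAG, the core bound by ETS factors such as GABP. The window length and the short NRF1 core were set after a first search with a longer window and a longer form of that motif. A further motif, linked to ZNF143 and picked after the sequences had been read, was searched at first and is not reported.

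Cox6a1 (GRCm38.p6, chr5:115348959-115349208, minus strand): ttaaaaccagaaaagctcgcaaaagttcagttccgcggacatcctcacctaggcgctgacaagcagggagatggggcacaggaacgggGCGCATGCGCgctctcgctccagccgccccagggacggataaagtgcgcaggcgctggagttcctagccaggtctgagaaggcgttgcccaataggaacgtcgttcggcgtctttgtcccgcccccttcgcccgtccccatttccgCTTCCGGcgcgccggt

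Atp5d (GRCm38.p6, chr10:80142025-80142274, plus strand): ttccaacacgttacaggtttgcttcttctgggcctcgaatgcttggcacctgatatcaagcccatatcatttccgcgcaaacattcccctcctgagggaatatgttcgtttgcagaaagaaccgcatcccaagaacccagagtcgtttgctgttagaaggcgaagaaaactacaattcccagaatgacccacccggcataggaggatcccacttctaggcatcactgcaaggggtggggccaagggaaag

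Uqcr10 (GRCm38.p6, chr11:4704345-4704594, minus strand): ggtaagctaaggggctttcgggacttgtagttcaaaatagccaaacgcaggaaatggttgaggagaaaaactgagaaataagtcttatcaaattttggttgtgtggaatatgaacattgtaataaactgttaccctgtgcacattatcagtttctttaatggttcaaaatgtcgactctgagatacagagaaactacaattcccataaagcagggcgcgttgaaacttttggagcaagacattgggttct

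Uqcrfs1 (GRCm38.p6, chr13:30545317-30545566, minus strand): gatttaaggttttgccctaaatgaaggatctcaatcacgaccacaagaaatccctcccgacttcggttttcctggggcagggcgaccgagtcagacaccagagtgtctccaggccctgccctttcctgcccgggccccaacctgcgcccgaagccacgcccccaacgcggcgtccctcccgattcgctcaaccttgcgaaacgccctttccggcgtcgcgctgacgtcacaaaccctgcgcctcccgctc

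Atp5k (GRCm38.p6, chr5:108434400-108434649, minus strand): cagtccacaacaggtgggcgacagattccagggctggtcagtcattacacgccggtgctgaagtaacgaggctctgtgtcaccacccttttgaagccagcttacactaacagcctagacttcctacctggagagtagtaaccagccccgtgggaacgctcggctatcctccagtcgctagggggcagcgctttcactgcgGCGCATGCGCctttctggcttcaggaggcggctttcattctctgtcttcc

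Of the 38 genes, 28 had a window in the promoter table. The NRF1 core lay in 3 of the 28 (10.7%), Cox5b, Cox6a1 and Atp5k, against 3.68% of 27025 genes with a window. In Cox6a1 and Atp5k its matches on the 2 strands overlap and form 1 capital run. The ETS core lay in 7 of the 28 (25%), namely Atp5e, Atp5h, Atp5j, Cox6a1, Cox6b1, Uqcr11 and Uqcrh, against 7.83% of all genes. A match describes the letters of the window and is not a measured binding site. Atp5d, Uqcr10 and Uqcrfs1 held neither set of letters in this window.

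The main comparison asked whether loss of Ucp2 goes with a different signal of these subunit genes. None of the 38 genes differed between genotypes at an adjusted p under 0.05 (limma, Benjamini-Hochberg over 23111 genes), where the smallest adjusted p of a member was 0.91. Over all genes 0 passed, or 0% of 23111. At an unadjusted p under 0.05, 4 of the 38 stood apart (10.5%), against a background of 4.77% of all genes (1103). Cox6a1, Atp5d and Uqcr10 had more signal in KO, where 2.22% of all genes did so at this threshold, and Uqcrfs1 had less, where 2.55% did. In 0 of the 38 did the values of the genotypes fail to overlap, against 0.835% of all genes. The count of 4 became 1 when any of WT replicate 5 and KO replicates 8 and 9 was left out, and 2 when WT replicate 1 or either of KO replicates 6 and 7 was. It was also 2 after a further quantile normalization, with an intensity trend and robust estimation, and with a smooth muscle score as a covariate, and 0 at an unadjusted p under 0.01. The genes counted were not always among these 4. With the smooth muscle score they were Uqcrfs1 and Cox5b (limma unadjusted p 0.0448), the latter under the guide. Without KO replicate 10 the count stayed at 4, with Cox8c, also under the guide, in place of Uqcrfs1.

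**Figure D1:**
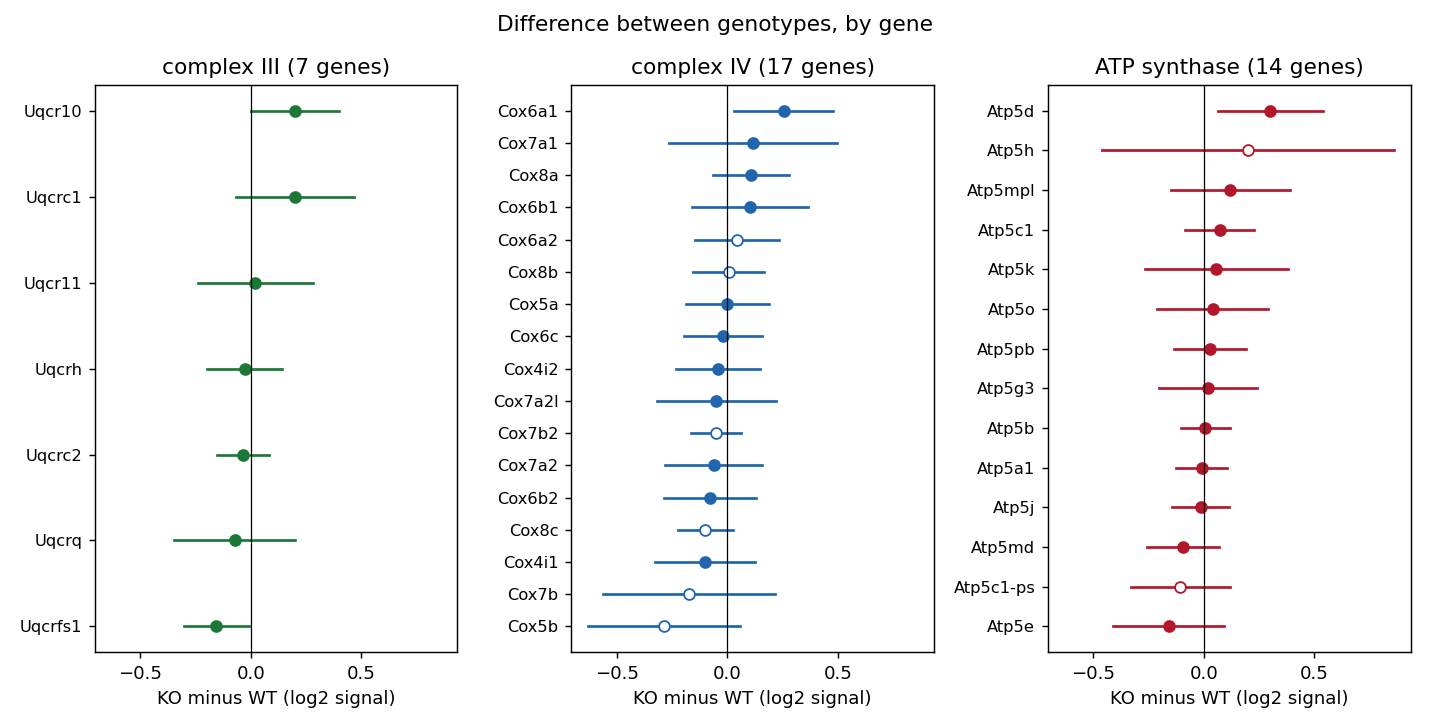
Difference between KO and WT in log2 signal for each of the 38 genes, by assembly; points are the difference of means over 5 arrays each, bars the 95% limma confidence interval, and open points mark genes whose mean is under the guide to background of 5.14. The intervals of 34 genes cover 0, and those of Cox6a1, Atp5d and Uqcr10 (above 0) and Uqcrfs1 (below 0) do not.

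As whole assemblies the 3 groups of genes were centred near 0. The median difference was -0.029 for complex III, -0.044 for complex IV and 0.022 for the ATP synthase, beside -0.019 for all genes. Differences were positive in 3 of 7 genes of complex III, 6 of 17 of complex IV and 9 of 14 of the ATP synthase, where 42.2% of all genes were positive. A score was formed for each array as the mean over an assembly's genes of the log2 signal minus the gene's mean over the 10 arrays. The score of complex III averaged -0.0089 ± 0.12 (SD, n = 5) in WT and 0.0089 ± 0.072 in KO, which differ by 0.018 ± 0.064 (SE). That of complex IV differed by -0.020 ± 0.053 and that of the ATP synthase by 0.032 ± 0.064. Each difference was smaller than its standard error, and the KO scores lay inside the range of the WT scores in all 3 assemblies.

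The assemblies were also set against one another. Within an array, the score of complex III minus that of complex IV differed between genotypes by 0.038 ± 0.036 (SE), complex III minus ATP synthase by -0.014 ± 0.042, and complex IV minus ATP synthase by -0.052 ± 0.055. With the 30 genes above the guide the same 3 values were -0.0022 ± 0.029, -0.012 ± 0.038 and -0.0098 ± 0.040. Scores were spread more widely over WT than over KO arrays, with an SD of 0.12 against 0.067 for the score of the 30 genes. The WT scores ran from -0.11 to 0.14, with WT replicates 1 and 4 at the top (0.10 and 0.14) and WT replicates 2, 3 and 5 at the bottom (-0.087, -0.10 and -0.11).

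In complex III, differences of both signs were found among the core proteins, the catalytic subunit and the small subunits. Uqcrfs1 encodes the Rieske iron-sulphur protein, which takes the electron from ubiquinol. Its log2 signal was 7.42, 7.15, 7.20, 7.29 and 7.25 in WT replicates 1 to 5 and 7.10, 7.21, 7.05, 7.12 and 7.04 in KO replicates 6 to 10. WT replicate 1 was the highest of all arrays, and only KO replicate 7 exceeded the lowest WT array. WT averaged 7.26 ± 0.11 (SD, n = 5) and KO 7.10 ± 0.068, giving a difference of -0.16 ± 0.066 (SE) with a limma unadjusted p of 0.0375 (adjusted 0.91). The p exceeded 0.05 when any of WT replicates 1, 4 and 5 and KO replicates 6, 8, 9 and 10 was left out, up to 0.0898 without WT replicate 1.

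Uqcr10 encodes a small subunit of the complex. The log2 signal of Uqcr10 was 8.64, 8.67, 8.42, 8.71 and 8.43 in WT replicates 1 to 5 and 8.70, 8.70, 8.84, 9.00 and 8.61 in KO replicates 6 to 10. KO replicates 8 and 9 were above every WT array, while the other 3 KO arrays lay among the WT values. The difference was 0.20 ± 0.091 (SE), with a limma unadjusted p of 0.0495 (adjusted 0.91). It lay just under the threshold and was above it with array medians subtracted (0.0583), after a further quantile normalization (0.0764), and when any of WT replicates 1, 3 and 5 and KO replicates 6 to 9 was left out, up to 0.126 without KO replicate 9.

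Uqcrc1 and Uqcrc2 encode the 2 large core proteins, which form the matrix side of the complex. The log2 signal of Uqcrc1 was 9.68, 9.39, 9.61, 9.61 and 8.98 in WT replicates 1 to 5 and 9.56, 9.70, 9.68, 9.69 and 9.61 in KO replicates 6 to 10. WT replicate 5, also lowest in the mean of the epithelial markers, was far below the other 9 arrays, and the difference of 0.20 ± 0.12 (SE) became 0.080 without it. The log2 signal of Uqcrc2 was 10.34, 10.34, 10.35, 10.34 and 10.27 in WT replicates 1 to 5 and 10.28, 10.39, 10.30, 10.22 and 10.25 in KO replicates 6 to 10. All 10 arrays lay within 0.17, and the 95% interval of the difference, -0.15 to 0.079, reaches a change of 1.11-fold at its outer end.

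The remaining 3 of the 7 complex III genes taken here are Uqcrh, the hinge protein that helps cytochrome c bind, and the small subunit genes Uqcrq and Uqcr11. Their differences were -0.029 ± 0.077, -0.073 ± 0.12 and 0.02 ± 0.12 (SE). Uqcrq was highest in WT replicates 1 and 4 (8.63 and 8.51) and lowest in WT replicate 5 (7.99).

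In complex IV the widely expressed subunit genes were split. Cox6a1, whose promoter window above holds both motifs, encodes the common form of a membrane subunit at the dimer interface. In the 10 arrays it read 11.91, 11.60, 11.96, 11.99 and 11.61 in WT replicates 1 to 5 and 11.87, 12.16, 12.23, 12.08 and 12.01 in KO replicates 6 to 10. KO replicates 7, 8, 9 and 10 lay above every WT array, KO replicate 6 lay among them, and WT replicates 2 and 5 were the lowest. WT averaged 11.81 ± 0.19 (SD, n = 5) and KO 12.07 ± 0.14, so that the difference was 0.25 ± 0.10 (SE), or 1.19-fold, with a limma unadjusted p of 0.0296 (adjusted 0.91). The p was above 0.05 when any of WT replicates 2 and 5 and KO replicates 7, 8 and 9 was left out, up to 0.0754 without WT replicate 2.

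Cox8a encodes the common form of a small membrane subunit. On the log2 scale it read 10.05, 10.04, 10.26, 10.35 and 10.15 in WT replicates 1 to 5 and 10.14, 10.43, 10.28, 10.29 and 10.24 in KO replicates 6 to 10. The groups overlapped and the difference of 0.11 ± 0.079 (SE) had a limma unadjusted p of 0.206 (adjusted 0.91). Cox5b encodes the zinc-binding subunit of the matrix side, and its probe set read under the guide to background, with 4.37, 4.28, 5.02, 4.42 and 4.19 in WT replicates 1 to 5 and 4.32, 3.95, 4.45, 4.15 and 3.99 in KO replicates 6 to 10. WT replicate 3 was the highest of the 10 arrays by far, and the difference of -0.29 ± 0.16 (SE) was -0.15 without it.

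Among the other widely expressed subunits, Cox4i1, which binds regulatory nucleotides, had a difference of -0.10 ± 0.10 (SE). Cox5a, its partner on the matrix side, had the smallest difference of all 38 genes, -0.00044 ± 0.085 with a 95% interval of -0.19 to 0.19. Cox6b1, which faces the intermembrane space, differed by 0.10 ± 0.12, Cox7a2 by -0.063 ± 0.099, Cox6c by -0.021 ± 0.08 and Cox7b, under the guide, by -0.17 ± 0.18. Cox4i1, Cox5a, Cox6b1 and Cox7a2 were each higher in WT replicates 1 and 4 than in WT replicates 2, 3 and 5.

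Cox7a2l encodes a relative of the Cox7a subunits that has been linked to supercomplexes of complex III and complex IV. Whether its product has this role in these C57BL6/J mice was not tested. Its signal was 6.49, 6.58, 6.53, 7.08 and 6.58 in WT replicates 1 to 5 and 6.31, 6.76, 6.66, 6.61 and 6.65 in KO replicates 6 to 10. WT replicate 4 stood alone at the top. The difference was -0.051 ± 0.12 (SE), 0.057 without that array and 0.022 without KO replicate 6.

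Of the tissue-restricted isoforms, Cox7a1 was above the guide in every array. It encodes the form of the Cox7a subunit known from heart and skeletal muscle. Its signal was 7.06, 6.65, 6.82, 7.18 and 6.31 in WT replicates 1 to 5 and 6.62, 7.31, 7.04, 6.78 and 6.84 in KO replicates 6 to 10. KO replicate 7 and WT replicate 4 were highest and WT replicate 5 lowest, and the groups overlapped, with a difference of 0.12 ± 0.17 (SE) that was -0.0089 without WT replicate 5. Of 10 skeletal muscle markers 4 lay above the guide, and the mean of all 10 per array was 4.74 to 4.93 in WT and 4.71 to 4.87 in KO. Smooth muscle markers were all above the guide, at 6.83 to 7.55 in WT and 6.86 to 8.14 in KO, with KO replicate 7 highest and WT replicate 5 lowest. With the smooth muscle score as a covariate the Cox7a1 difference was -0.056, and with the epithelium score it was 0.022. With genotype means removed, Cox7a1 had a Pearson r of 0.63 with the smooth muscle score and 0.79 with the epithelium score. The source of its signal was not tested.

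Cox4i2 encodes the lung form of the Cox4 subunit, which is also induced by low oxygen. Its signal was 5.54, 5.12, 5.24, 5.16 and 5.18 in WT replicates 1 to 5 and 5.13, 5.09, 5.23, 5.27 and 5.30 in KO replicates 6 to 10, so all arrays except WT replicate 1 were close to the guide of 5.14. Cox6b2, the testis form of Cox6b, read 5.0, 5.02, 5.19, 5.29 and 5.45 in WT replicates 1 to 5 and 5.14, 5.08, 5.15, 5.23 and 4.95 in KO replicates 6 to 10, on both sides of the guide. The differences of Cox4i2 and Cox6b2 were -0.044 ± 0.086 and -0.079 ± 0.094 (SE).

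The muscle form Cox6a2 was below the guide in every array, with 4.98, 4.70, 5.02, 4.61 and 4.68 in WT replicates 1 to 5 and 4.87, 4.80, 4.85, 4.88 and 4.82 in KO replicates 6 to 10. So was Cox8b, another muscle form, with 3.82, 3.84, 4.13, 3.92 and 3.88 in WT replicates 1 to 5 and 3.90, 3.91, 3.89, 3.87 and 4.06 in KO replicates 6 to 10. The testis forms Cox8c and Cox7b2 did not reach the guide in any array. Cox8c read 3.92, 3.87, 3.93, 3.90 and 4.01 in WT replicates 1 to 5 and 3.84, 3.80, 3.76, 3.78 and 3.94 in KO replicates 6 to 10. Cox7b2 read 2.94, 2.85, 2.87, 2.91 and 2.87 in WT replicates 1 to 5 and 2.82, 2.83, 2.91, 2.78 and 2.83 in KO replicates 6 to 10. The differences of these 4 genes lay between -0.10 and 0.045. The common partners Cox4i1, Cox6a1, Cox6b1, Cox7a2 and Cox8a all had means above the guide, and Cox7b was under it.

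In the ATP synthase the gene that stood apart belonged to the central stalk. Atp5d encodes the delta subunit of F1, which sits at the foot of the rotating stalk. In log2 units it read 10.69, 10.55, 10.56, 10.98 and 10.63 in WT replicates 1 to 5 and 10.72, 11.16, 11.14, 11.02 and 10.88 in KO replicates 6 to 10. KO replicates 7, 8 and 9 were above every WT array, KO replicates 6 and 10 were above 4 of the 5 WT arrays, and WT replicate 4 lay among the KO values. WT averaged 10.68 ± 0.18 (SD, n = 5) and KO 10.98 ± 0.18, and the difference of 0.30 ± 0.11 (SE), or 1.23-fold, came with a limma unadjusted p of 0.0176 (adjusted 0.91). This p stayed under 0.05 with each array left out in turn, from 0.00297 to 0.0455.

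Atp5e encodes the epsilon subunit, which binds next to delta in the same stalk, and its difference had the opposite sign. Atp5e read 8.10, 7.83, 7.60, 8.15 and 7.75 in WT replicates 1 to 5 and 7.74, 7.70, 7.51, 7.89 and 7.78 in KO replicates 6 to 10. WT replicates 1 and 4 were high and KO replicate 8 low, with a difference of -0.16 ± 0.11 (SE) and a limma unadjusted p of 0.187 (adjusted 0.91). The gamma subunit gene Atp5c1, the shaft of the stalk, differed by 0.071 ± 0.07. Its pseudogene Atp5c1-ps read 3.69, 3.33, 3.46, 3.34 and 3.40 in WT replicates 1 to 5 and 3.17, 3.19, 3.31, 3.63 and 3.41 in KO replicates 6 to 10, under the guide in every array.

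The subunits that form the catalytic head varied little. Atp5b, the beta subunit that carries the catalytic sites, lay at 11.74 to 11.89 over the 10 arrays and differed by 0.0067 ± 0.051 (SE). Atp5a1, the alpha subunit, lay at 11.49 to 11.63 and differed by -0.011 ± 0.053. The 95% intervals of the differences, -0.11 to 0.12 and -0.13 to 0.11, reach changes of 1.09-fold at their outer ends. The SD within genotypes was 0.045 for Atp5b, 0.050 for Uqcrc2 and 0.051 for Atp5a1, the lowest of the 30 genes above the guide, and was highest for Cox7a1 (0.31) and Atp5k (0.26).

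None of the genes of the membrane part and the outer stalk was at an unadjusted p under 0.05. Atp5g3, a source of the subunit that forms the rotor ring, differed by 0.018 ± 0.10 (SE). The outer stalk genes Atp5pb, Atp5o and Atp5j differed by 0.026 ± 0.074, 0.039 ± 0.11 and -0.015 ± 0.058, and the fourth, Atp5h, was under the guide and scattered from 3.62 to 5.08 over the arrays. Atp5k, Atp5md and Atp5mpl encode small membrane subunits, of which the first 2 take part in the pairing of ATP synthases. Atp5md read 8.70, 8.42, 8.62, 8.71 and 8.60 in WT replicates 1 to 5 and 8.36, 8.59, 8.54, 8.61 and 8.48 in KO replicates 6 to 10, with a difference of -0.094 ± 0.074 (SE). The differences of Atp5k and Atp5mpl were 0.055 ± 0.15 and 0.12 ± 0.12.

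**Figure D2:**
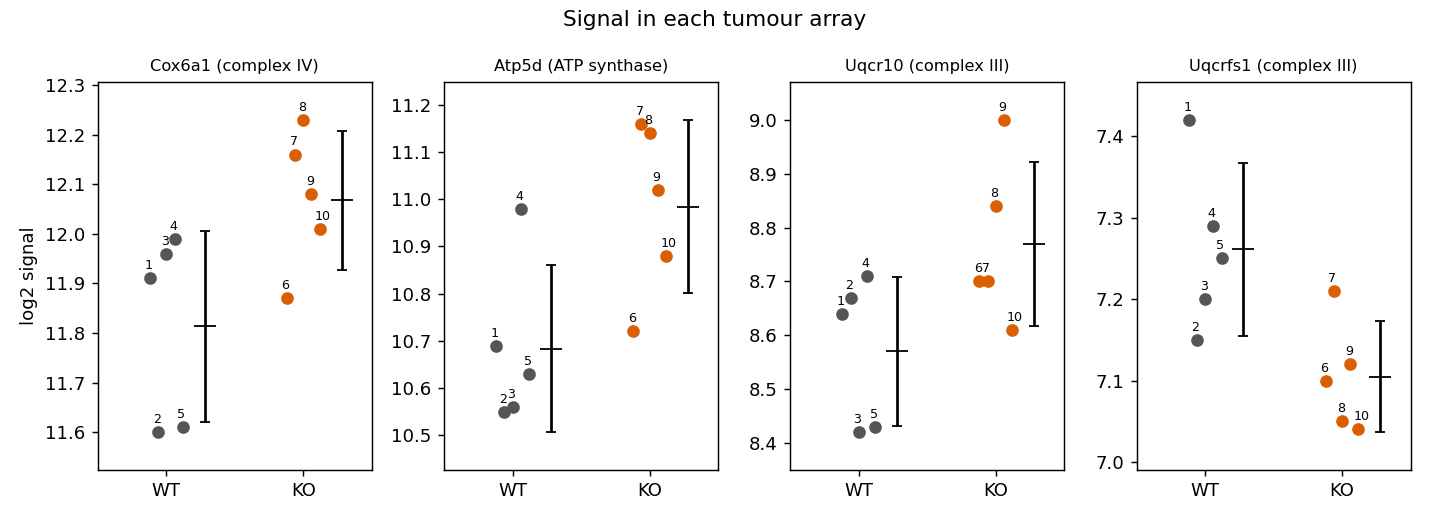
Log2 signal in each array of the 4 genes at an unadjusted p under 0.05; numbers are the replicates, and the bar beside each group is the mean ± SD over 5 arrays. The groups overlap in each of the 4 genes, by 1 WT array (replicate 4) within the KO range in Atp5d.

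Markers of other cell types are given beside these 4 genes. The 7 macrophage markers were all higher in KO at a limma unadjusted p under 0.05, where 2.22% of all genes were. Their mean per array was 7.78 to 8.04 in WT and 8.08 to 8.61 in KO. The 10 smooth muscle markers had positive differences, as 42.2% of all genes did, with 0 of the 10 at that threshold. Of 8 fat cell markers Lep and of 6 fibroblast markers Col1a1 were lower in KO at that threshold, where 2.55% of all genes were. Lep was under the guide, above which 3 of the 8 fat cell markers had their mean, and 3 of the 8 had a positive difference. Of the 6 fibroblast markers 4 had a positive difference, and their score differed by 0.021 ± 0.086 (SE). At that threshold were 0 of the 5 B and plasma cell, 5 endothelial, 6 lung or pericyte and 6 testis markers. In these bulk tumours, fewer cells of a type and less RNA per cell cannot be told apart. With the smooth muscle score as a covariate the differences were 0.21 for Atp5d, 0.16 for Cox6a1, 0.16 for Uqcr10 and -0.18 for Uqcrfs1, and only that of Uqcrfs1 kept an unadjusted limma p under 0.05. With the epithelium score they were 0.27, 0.22, 0.16 and -0.17 in the same order, and all but Uqcr10 kept a p under that threshold. The part of the macrophage signal in these differences was not tested.

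The subunit genes varied together from array to array once genotype means were removed, over WT and KO arrays pooled. After the mean of each genotype was removed, the 435 pairs formed by the 30 genes above the guide had a median Pearson r of 0.34 over the 10 arrays, and 82.5% of the pairs were positive. Pairs of all 13842 genes of similar signal had a median r of 0.006. The median was 0.36 within complex III (21 pairs), 0.31 within complex IV (55 pairs) and 0.34 within the ATP synthase (66 pairs). Between assemblies it was 0.39 for complex III with complex IV, 0.32 for complex III with the ATP synthase and 0.32 for complex IV with the ATP synthase. These correlations are descriptions over arrays that share tissue make-up and normalization. Leaving out each array in turn gave medians of 0.28 to 0.38.

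Single genes differed in how far they took part. Atp5k (median r with the other 29 genes of 0.58), Cox7a2 (0.56), Cox6b1 (0.55), Cox7a1 (0.52) and Cox5a (0.51) followed the shared pattern most closely. Atp5b (-0.15), Cox6b2 (-0.068), Atp5c1 (0.083) and Atp5a1 (0.18) followed it least. Of these 4, Atp5b, Atp5a1 and Atp5c1 encode the catalytic head and its shaft, and Cox6b2 had a signal near the guide.

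**Figure D3:**
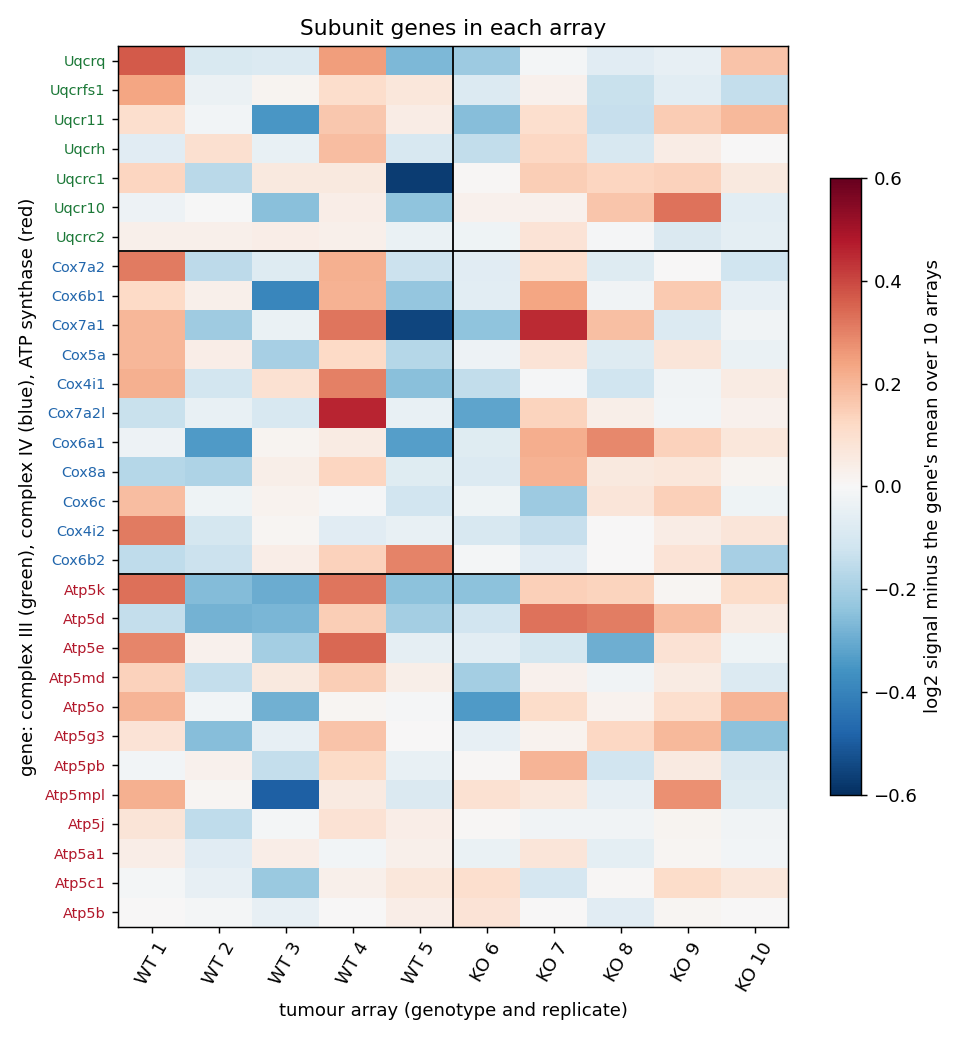
Log2 signal minus the gene's mean over the 10 arrays for the 30 genes above the guide to background, by assembly and, within it, from the highest to the lowest median correlation with the other genes. WT replicates 1 and 4 are high in most rows and WT replicates 2, 3 and 5 low, while Atp5a1 and Atp5b are nearly flat.

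The shared pattern went with that of epithelial markers. With genotype means removed, the score of complex III (7 genes) correlated over the 10 arrays with the epithelium score at a Pearson r of 0.91 and a Spearman rho of 0.94. For complex IV (the 11 genes above the guide) r was 0.80 and rho 0.90, and for the ATP synthase (12 genes) r was 0.62 and rho 0.76. Without WT replicates 1 and 5, the 2 arrays farthest from the median epithelium score, r was 0.89, 0.77 and 0.84. Of the 30 genes, 13 had r over 0.5 with the epithelium score (43.3%), where 13% of genes of similar signal did. Cox5a (0.86), Uqcrc1 (0.85) and Cox7a1 (0.79) had the highest values, and Cox6b2, Atp5b, Atp5c1 and Atp5a1 were at -0.53, -0.30, -0.11 and -0.041. With the epithelium score removed as well, the median r among the 30 genes was 0.21 in place of 0.34.

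Smooth muscle and macrophages were set beside the assemblies in the same way. With the smooth muscle score, r was 0.29 for complex III, 0.51 for complex IV and 0.16 for the ATP synthase (Spearman rho 0.36, 0.49 and 0.22), and 7 of the 30 genes had r over 0.5 (23.3%, against 15.5% of genes of similar signal). Without KO replicates 7 and 10, the arrays farthest from the median smooth muscle score, r was 0.39, 0.56 and 0.029. With the macrophage score r was 0.27, 0.29 and 0.15 (rho 0.16, 0.13 and 0.030), and without KO replicates 6 and 7 it was -0.11, -0.11 and -0.19. Of the 30 genes, 5 had r over 0.5 with the macrophage score (16.7%), against 8.68% of genes of similar signal. In all, 12 such relations between an assembly and a list were computed, 4 lists for each assembly, and they carry no p-values because the genes were chosen with earlier results of these data known.

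**Figure D4:**
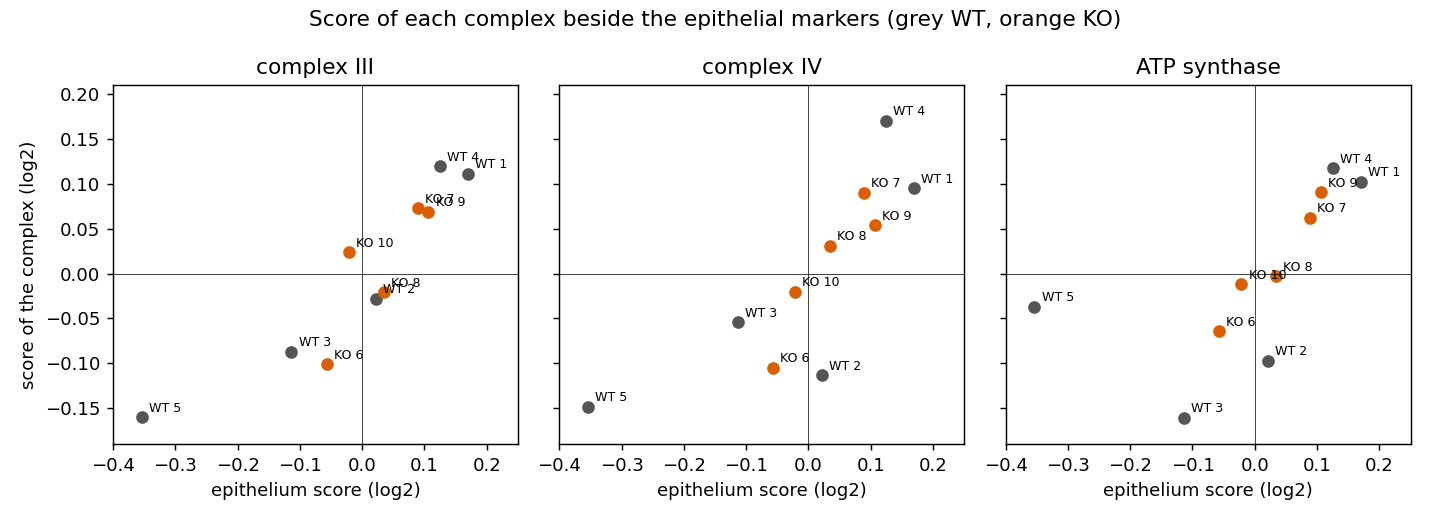
Score of each assembly (mean log2 deviation of its genes above the guide, vertical axis) against the score of 11 epithelial markers (horizontal axis) in the 10 arrays, WT grey and KO orange, genotype means not removed. Arrays with a higher epithelium score tend to have a higher score of each assembly, WT replicate 5 is at the far left in all 3 and lies off the trend in the ATP synthase, and the 2 genotypes are mixed along the trend.

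Genes whose symbol starts with Nduf, named for complex I, which feeds electrons to complex III, followed the same pattern. The start of the symbol also takes in Ndufa4 and Ndufa4l2, which were placed here in a list of electron carriers and neighbours. Neither is counted in complex IV here, and Ndufa4 differed by -0.084 ± 0.073 (SE). The set is therefore not complex I alone. The score of 44 Nduf genes correlated with that of complex III at r = 0.89, of complex IV at r = 0.80 and of the ATP synthase at r = 0.92 (Spearman rho 0.88, 0.77 and 0.79), and without WT replicates 1 and 3 at 0.87, 0.83 and 0.86. Of the 30 genes, 18 had r over 0.5 with it (60%), against 9.44% of genes of similar signal. By genotype the Nduf genes had a median difference of -0.0062, with 2 of 44 at an unadjusted p under 0.05 (4.55%), near the 4.77% of all genes.

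Genes that build, feed or control these assemblies were read from lists. Of 24 measured assembly factors of complex IV, 3 were at an unadjusted p under 0.05 (12.5%, against 4.77% of all genes), with Higd2a above and Higd1a and Lrpprc below WT, and 0 passed the adjusted threshold (limma). Higd2a, which helps complex IV join supercomplexes, read 9.55, 9.66, 9.69, 9.90 and 9.76 in WT replicates 1 to 5 and 9.79, 10.12, 10.20, 10.06 and 9.88 in KO replicates 6 to 10. KO replicates 7, 8 and 9 exceeded all WT arrays, with a difference of 0.30 ± 0.094 (SE) and an unadjusted p of 0.00872 (adjusted 0.91). Its hypoxia-induced relative Higd1a had the opposite sign, at -0.29 ± 0.10, and Lrpprc, which stabilises mitochondrial mRNAs, was at -0.18 ± 0.076.

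The 6 assembly factors of complex III had differences between -0.023 and 0.024, and the 5 measured genes for assembly or inhibition of the ATP synthase between -0.050 and 0.070, with 0 at an unadjusted p under 0.05 in either. Cyc1, the cytochrome subunit of complex III whose symbol falls outside the rule, differed by 0.026 ± 0.076 (SE). Of 14 regulators of respiratory genes 0 were at that threshold, and Nrf1, Gabpa, Esrra and Tfam differed by -0.095 ± 0.07, -0.0048 ± 0.069, 0.011 ± 0.093 and -0.035 ± 0.096. Of 5 genes of mitochondrial mass 4 had a negative difference, with a median of -0.15 beside -0.019 for all genes, and their score differed by -0.11 ± 0.039 (SE). Hspa9, Hspd1 and Vdac1 differed by -0.15 ± 0.079, -0.19 ± 0.16 and -0.011 ± 0.065, and Cs, which encodes citrate synthase, by 0.082 ± 0.082. At an unadjusted p under 0.05 was 1 of the 5, where 4.77% of all genes were, namely Tomm20, an import receptor of the outer membrane, with 8.01, 7.95, 7.93, 8.20 and 7.98 in WT replicates 1 to 5 and 7.81, 7.39, 7.79, 7.79 and 7.92 in KO replicates 6 to 10. Its groups did not overlap, by a margin of the second decimal, as in 0.835% of all genes, and the difference was -0.27 ± 0.099 (SE), with a limma unadjusted p of 0.0193 (adjusted 0.91).

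Chromosome 7, which holds Ucp2, also holds 6 of the 38 genes. In the order of measured genes, Uqcrc2 was the nearest, 386 genes from Ucp2, and Cox6a2, Cox6b1, Cox8b, Cox7a1 and Cox6b2 were 529 to 1183 genes away. Their differences lay between -0.079 and 0.12, and 0 of the 6 were at an unadjusted p under 0.05.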

How the data were processed

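For each array the authors deposited log2 signals, 1 for a probe set, from total RNA amplified and biotin-labelled with an Affymetrix whole-transcript kit per the labels' protocols. RMA and Partek are named in the submitters' processing notes, with versions and genome build not given in the sources used here, and base 2 was inferred from how the values spread. Because RMA equalises arrays, a shift common to all genes cannot be seen, and dim differences are compressed. Probe sets were named by the platform annotation, which gave 1 symbol for 23111 of 23747. No further normalization was applied. The genotypes were compared by lmFit and eBayes of limma 3.58.1 in R 4.3.3, without covariates, over all named genes with Benjamini-Hochberg adjustment, checked on simulated data. Per assembly, the 4 genes with the smallest p, the tissue-restricted isoforms and Cox7a2l were given in every array, and up to 3 genes of each other list were named. Subunit genes and lists were chosen with earlier results of these data known. The number of arrays limits the precision. Many subunit genes have near-identical pseudogenes that probes may also bind, so single values are uncertain. Alternatives left out arrays or dim genes, rescaled arrays, changed the model or added a covariate.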

Additional observations from a re-analysis of the deposited data

Results flagged for a closer look

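In each group of 5 arrays, a value was singled out when its gap to the nearest other array exceeded the Dixon limit for that group's range. Of 82 groups looked at, 5 were marked, and chance marks about 5%. WT replicate 4 had a Cox7a2l signal of 7.081, with the other WT arrays at 6.49 to 6.58. WT replicate 1 had a Cox4i2 signal of 5.538, with the others at 5.12 to 5.24. WT replicate 3 had a Cox5b signal of 5.018, with the others at 4.19 to 4.42, and KO replicate 10 a Cox8b signal of 4.061, with the others at 3.87 to 3.91, both under the guide to background. WT replicate 5 had a Uqcrc2 signal of 10.265, below the other WT arrays, which lay within a few thousandths of one another.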

How the results depend on the processing

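No paired analysis was possible because the labels give WT and KO samples no replicate number in common. The mean differences of the 3 assemblies moved by less than the spread between arrays under every alternative tried. Leaving out a single array cannot move a group mean that far, so those runs could not fail this comparison. With single arrays left out the differences were -0.020 to 0.050 for complex III, -0.050 to 0.016 for complex IV and -0.0095 to 0.069 for the ATP synthase. Each of these ranges holds both signs. Over all genes, 0 were called at adjusted p under 0.05, 0 to 2 with single arrays left out (2 without WT replicate 3 and 1 without KO replicate 8), 2 without dim genes, 1 with an intensity trend and robust estimation, and 2 with the epithelium score as a covariate. Members at unadjusted p under 0.05 numbered 2 in complex III, and 0 to 2 with single arrays left out, 1 without dim genes, with array medians subtracted, after quantile normalization and with the epithelium or smooth muscle score, and 0 with the intensity trend and at p under 0.01. In complex IV the count was 1, and 0 to 2 with single arrays left out, 0 after quantile normalization and 0 at p under 0.01. It was 2 without KO replicate 10, where Cox8c joined Cox6a1. With the smooth muscle score it was 1, with Cox5b in place of Cox6a1. In the ATP synthase it was 1 with each array left out, and 0 with the smooth muscle score and at p under 0.01. A stricter threshold can only lower a count, by construction, and the cause of the other changes was not tested. The median correlation among the 30 genes above the guide, 0.34, was 0.28 to 0.38 with single arrays left out and 0.21 with the epithelium score removed, alternatives added after seeing the data. Differences near 0 changed sign: Cox7a1 gave -0.056 with the smooth muscle score, and with single arrays left out Cox4i2 ranged from -0.076 to 0.029, Cox6a2 from -0.0014 to 0.10, Cox7a1 from -0.0089 to 0.21, Cox8b from -0.029 to 0.059 and Cox7a2l from -0.092 to 0.057. Signals near background limit what can be said of the 8 genes under the guide.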
